A study of Mus musculus with 6 samples.

Results

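Podocytes are the epithelial cells that wrap the capillaries of the kidney glomerulus, and 8 genes used as their markers were followed here in mouse kidneys with calcium oxalate stones. The genes were taken by symbol as Nphs1, Podxl, Synpo, Wt1, Nes, Cd2ap, Actn4 and Ptpro, and all 8 were found among the 17933 genes of the deposited expression table. RNA came from whole kidneys of 3 samples in the stone group and 3 in the control group, all from male C57BL/6 mice labelled WT, aged 6 to 8 weeks and weighing 24 to 26 g. The stone group had received glyoxylic acid, an oxalate precursor, at 120 mg/kg into the peritoneum daily for 12 days, and the control group an equal volume of saline. Whether every sample comes from its own mouse is not spelled out in the labels, so the p-values reflect the spread among these samples and that spread could be technical. Expression is given in FPKM, a fragment count divided by gene length and by the library total, and the number of fragments behind each value is unknown.

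A podocyte sends out foot processes that interlock around the capillary, and the gaps between them are bridged by the slit diaphragm, a protein filter built around nephrin. Adaptor proteins tie the diaphragm to an actin skeleton inside the foot process, and a negatively charged coat on the outer face keeps neighbouring processes apart. Podocytes are a small share of kidney cells and hardly divide in the adult. In whole kidney RNA, more cells of a type and more RNA per cell cannot be told apart, and several of the 8 genes are also expressed outside podocytes, as given with each gene below.

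Of the 8 markers, 5 matched the RefSeq promoter table (GRCm38.p6), which holds 250 bases before and 50 bases after a gene's start. The windows of Nphs1, Nes and Actn4 are shown because Nphs1 is the marker most restricted to podocytes and had the smallest change, Nes had the largest change, and Actn4 is widely expressed and had the highest level. Capitals mark GNGTGGGNG on either strand, a looser form of GCGTGGGNG, the zinc finger motif bound by WT1 and by EGR1. Every match of the second is also a match of the first.
Nphs1, chr7:30459808-30460107, plus strand: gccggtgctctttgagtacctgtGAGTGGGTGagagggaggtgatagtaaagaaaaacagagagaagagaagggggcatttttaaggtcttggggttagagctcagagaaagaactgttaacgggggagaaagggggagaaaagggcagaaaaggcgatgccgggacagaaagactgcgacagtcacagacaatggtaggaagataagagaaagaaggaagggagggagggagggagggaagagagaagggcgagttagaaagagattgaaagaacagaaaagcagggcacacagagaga
Nes, chr3:87970843-87971142, plus strand: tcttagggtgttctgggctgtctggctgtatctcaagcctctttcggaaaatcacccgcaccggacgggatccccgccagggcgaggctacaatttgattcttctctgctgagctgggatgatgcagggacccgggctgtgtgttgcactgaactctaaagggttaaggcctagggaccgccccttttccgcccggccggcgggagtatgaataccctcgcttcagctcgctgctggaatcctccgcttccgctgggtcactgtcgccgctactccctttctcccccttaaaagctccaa
Actn4, chr7:28962283-28962582, minus strand: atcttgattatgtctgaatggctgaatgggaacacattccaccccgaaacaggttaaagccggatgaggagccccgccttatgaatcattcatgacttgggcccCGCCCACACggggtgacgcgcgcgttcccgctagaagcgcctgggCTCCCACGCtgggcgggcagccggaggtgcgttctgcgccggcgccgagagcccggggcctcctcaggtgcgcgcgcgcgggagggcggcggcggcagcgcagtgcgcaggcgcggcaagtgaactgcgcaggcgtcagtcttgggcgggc
GCGTGGGNG was found once, in the Actn4 window on the complement of the printed strand, where it reads GCGTGGGAG, and 1.9% of all 32851 promoter windows hold it. The looser motif matched once in Nphs1, as GAGTGGGTG, 2 times in Actn4, once in Cd2ap, and 0 times in Nes and Ptpro, against 14.3% of all windows. The Nphs1 window was 49.7% G and C with a CpG frequency of 0.504 of that expected from its base composition, and the Ptpro window 54.7% with 0.240. The Nes, Actn4 and Cd2ap windows were richer, at 58.7%, 68.0% and 77.0% G and C and CpG ratios of 0.702, 1.02 and 0.924. The medians over all windows were 52.7% and 0.384. The Nphs1 window lies inside the gene spans that GENCODE and RefSeq give. Both begin upstream of it, at 30458315 and 30458207, so the window is not at the first base of either span. These are descriptions of letters and show no binding.

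All 8 podocyte markers were higher in stone kidneys, and for each of them the lowest stone sample lay above the highest control sample. Nes, which encodes the intermediate filament protein nestin, changed most, and Nphs1, which encodes nephrin, changed least. All 8 passed limma's test at a Benjamini-Hochberg adjusted p below 0.05 over the whole table, where 43.5% of the 12319 genes tested were called higher and 13.9% lower. Groups without overlap and with stone higher were found for 49.8% of all tested genes. Fold changes are differences of log2(FPKM + 1), a scale on which low genes appear to change less than they do. The median log2 fold change was 0.81 over the 8 markers and 0.21 over all tested genes.

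How samples are scaled to each other moves every value. Kap, a proximal tubule transcript, took 1.18% to 2.26% of the FPKM sum in stone samples and 19.3% to 23.2% in control samples. Median-of-ratios scaling shifted the median of all tested genes by -0.22, quantile normalization by -0.24 and equal FPKM sums by 0.24. Under median-of-ratios scaling 7 of the 8 markers were called higher, without Nphs1, where 22.5% of all tested genes were. After quantile normalization 5 markers were called, without Nphs1, Wt1 and Ptpro, where 22.3% of all tested genes were. With equal FPKM sums 8 were, where 68.5% of all tested genes were. With Kap left out of those sums 8 were too, at log2 fold changes of 0.43 for Nphs1 to 1.71 for Nes, where 36.8% of all tested genes were called higher and 14.9% lower. The shares of all tested genes called lower under median-of-ratios scaling, quantile normalization and equal FPKM sums were 26.2%, 25.5% and 6.47%. All 8 log2 fold changes were positive under each of these scalings.

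**Figure D1:**
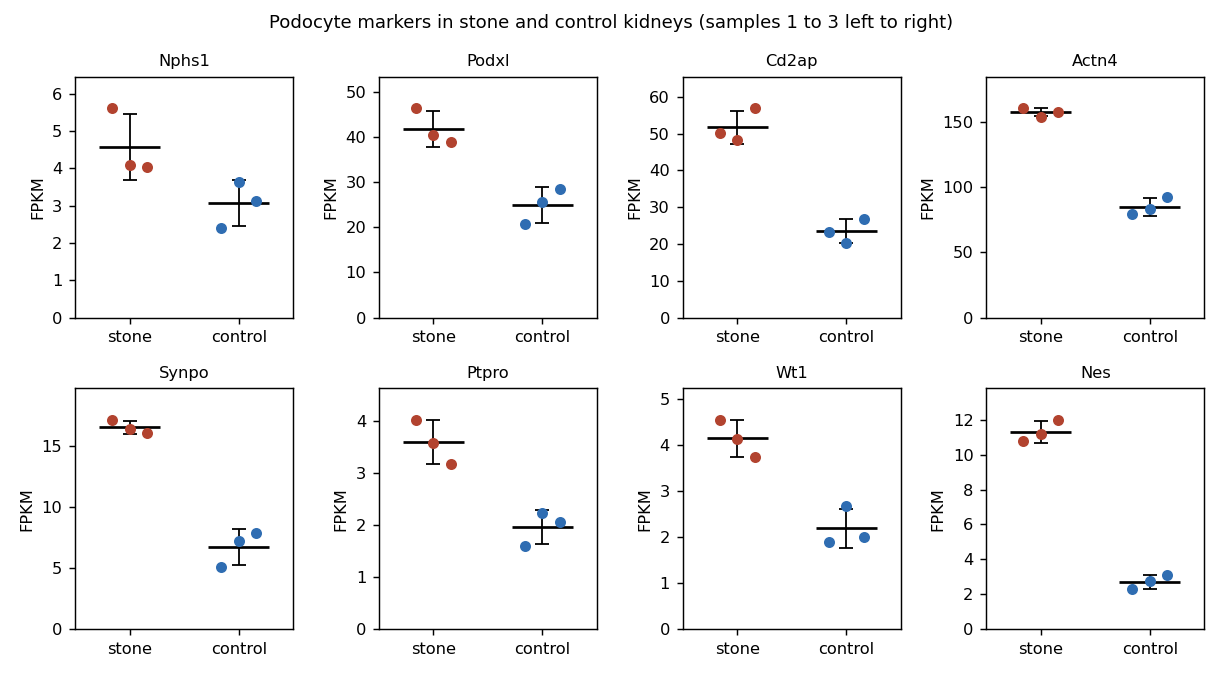
FPKM of the 8 podocyte markers in 3 stone samples (left, red) and 3 control samples (right, blue), with the mean (line) and SD (error bar). For all 8 markers every stone point lies above every control point, as in Nes at 10.8 to 12.0 against 2.29 to 3.07 FPKM.

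Nephrin is the adhesion protein of the immunoglobulin family that spans the slit diaphragm. Nphs1 (ENSMUSG00000006649.17, chromosome 7 from 30458315 to 30487223, plus strand, GRCm38) measured 5.60, 4.09 and 4.04 FPKM in stone samples 1 to 3, against 2.41, 3.64 and 3.12 FPKM in control samples 1 to 3. Stone sample 1 stood well above the other stone samples, and the lower stone samples were only just above control sample 2. The means were 4.58 ± 0.887 FPKM in stone and 3.06 ± 0.617 FPKM in control kidneys (SD, n = 3 each). The log2 fold change came to 0.46 (SE 0.15, limma, adjusted p = 0.0373), at percentile 73.7 of all tested genes. This call was lost under median-of-ratios scaling, at 0.26 (limma, adjusted p = 0.239), and after quantile normalization, at 0.08 (limma, adjusted p = 0.754). It was also lost without stone sample 1, without stone sample 2, without control sample 1 and without control sample 3, at log2 fold changes of 0.33, 0.52, 0.34 and 0.48 (limma, adjusted p = 0.0946, 0.0551, 0.114 and 0.0713), and without the filter on low genes (limma, adjusted p = 0.0644). The annotation places an antisense gene, Nphs1os, over Nphs1, and it is not given whether the strand was used in counting, so reads of the pair may not be separated.

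Podocalyxin, encoded by Podxl, is the sialomucin that gives the outer face of foot processes its negative charge, and vascular endothelium makes it too. Podxl (chromosome 6 from 31519488 to 31563981, minus strand) measured 46.3, 40.3 and 38.8 FPKM in stone samples 1 to 3, against 20.7, 25.6 and 28.6 FPKM in control samples 1 to 3. The groups were clearly apart, and stone sample 1 was again the highest. The means were 41.8 ± 3.96 FPKM in stone and 24.9 ± 3.96 FPKM in control kidneys (SD, n = 3 each), a log2 fold change of 0.73 (SE 0.12, limma, adjusted p = 0.00241).

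GLEPP1, a receptor-type tyrosine phosphatase on the surface of the foot process, is the product of Ptpro. Its transcript (chromosome 6 from 137252319 to 137463233, plus strand) measured 4.02, 3.58 and 3.18 FPKM in stone samples 1 to 3, against 1.6, 2.23 and 2.06 FPKM in control samples 1 to 3. Every stone value was above the highest control value, at low levels throughout. The means were 3.59 ± 0.420 and 1.96 ± 0.326 FPKM in stone and control kidneys (SD, n = 3 each). The log2 fold change came to 0.63 (SE 0.12, limma, adjusted p = 0.0042). It was 0.45 under median-of-ratios scaling and 0.23 after quantile normalization, where the call was lost (limma, adjusted p = 0.237).

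On the actin side of the foot process, CD2AP is an adaptor that joins nephrin to actin and is also present in tubule cells. Cd2ap (chromosome 17 from 42792951 to 42876665, minus strand) measured 50.3, 48.2 and 56.8 FPKM in stone samples 1 to 3, against 23.3, 20.4 and 26.8 FPKM in control samples 1 to 3. The lowest stone sample was well above the highest control sample. The means were 51.8 ± 4.50 and 23.5 ± 3.20 FPKM in stone and control kidneys (SD, n = 3 each), and the log2 fold change came to 1.11 (SE 0.11, limma, adjusted p = 0.000254).

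Alpha-actinin 4, from Actn4, crosslinks actin filaments in podocytes and in many other cells, and mutations of the human gene cause a familial glomerulosclerosis. Actn4 (chromosome 7 from 28893248 to 28962340, minus strand) measured 160.3, 154 and 158 FPKM in stone samples 1 to 3, against 79.2, 83.5 and 92.7 FPKM in control samples 1 to 3. The stone samples were nearly alike, with a spread below that of the controls. The means were 157 ± 3.12 and 85.1 ± 6.91 FPKM in stone and control kidneys (SD, n = 3 each), a log2 fold change of 0.88 (SE 0.07, limma, adjusted p = 0.000114).

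Synaptopodin, an actin-associated protein of foot processes and of dendritic spines, is encoded by Synpo. Synpo (chromosome 18 from 60593973 to 60660142, minus strand) measured 17.2, 16.4 and 16.1 FPKM in stone samples 1 to 3, against 5.11, 7.19 and 7.89 FPKM in control samples 1 to 3. The stone samples were tightly grouped and lay far above the controls. The means were 16.6 ± 0.548 and 6.73 ± 1.45 FPKM in stone and control kidneys (SD, n = 3 each), and their ratio was 2.46. The log2 fold change came to 1.20 (SE 0.14, limma, adjusted p = 0.000455).

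WT1 is a zinc finger transcription factor that adult kidneys keep mainly in podocytes and that is known to act on the promoters of nephrin and podocalyxin. Wt1 (chromosome 2 from 105126529 to 105173616, plus strand) measured 4.55, 4.14 and 3.75 FPKM in stone samples 1 to 3, against 1.90, 2.68 and 2.00 FPKM in control samples 1 to 3. No stone value fell within the control range. The means were 4.15 ± 0.40 and 2.19 ± 0.424 FPKM in stone and control kidneys (SD, n = 3 each). The log2 fold change came to 0.69 (SE 0.12, limma, adjusted p = 0.00294), and the call was lost after quantile normalization, at 0.31 (limma, adjusted p = 0.143).

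Nestin is an intermediate filament protein of podocytes, and also of progenitor cells, some endothelium and mesenchymal cells. Nes (chromosome 3 from 87971078 to 87980451, plus strand) measured 10.8, 11.2 and 12.0 FPKM in stone samples 1 to 3, against 2.29, 2.75 and 3.07 FPKM in control samples 1 to 3. The gap between the groups was many times the spread within either. The means were 11.3 ± 0.626 and 2.70 ± 0.392 FPKM in stone and control kidneys (SD, n = 3 each), a ratio of 4.19. The log2 fold change came to 1.74 (SE 0.10, limma, adjusted p = 3.36e-05), at percentile 98.1 of all tested genes, and 1.53 under median-of-ratios scaling.

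**Figure D2:**
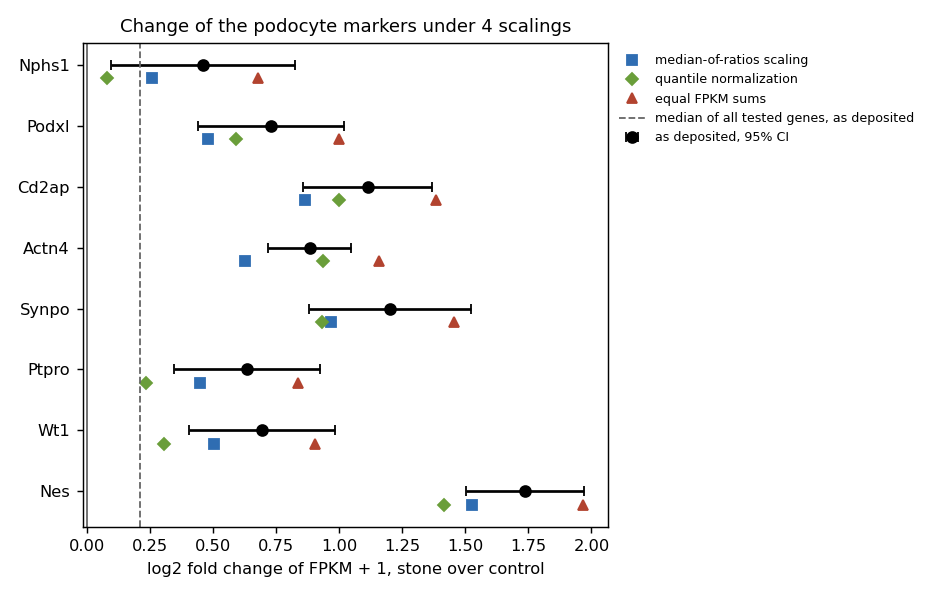
Log2 fold change of FPKM + 1, stone over control, of each marker, with the 95% confidence interval as deposited (black) and the values after 3 other scalings. Every marker lies right of 0 under each scaling, from 0.46 for Nphs1 to 1.74 for Nes as deposited.

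Since FPKM is a level per gene length, the markers can be ordered among themselves. In stone kidneys mean FPKM levels ran from Actn4 through Cd2ap, Podxl, Synpo, Nes, Nphs1 and Wt1 to Ptpro. Each of these neighbours was separate from the next in every stone sample except Nphs1 and Wt1, and Wt1 and Ptpro, whose ranges overlapped. In control kidneys the order was Actn4, Podxl, Cd2ap, Synpo, Nphs1, Nes, Wt1 and Ptpro. There the ranges of Podxl and Cd2ap overlapped, as did those of each neighbouring pair from Nphs1 to Ptpro. Nes thus stood above every Nphs1 value among stone samples but within the Nphs1 range, or just under it, among control samples.

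The samples within a group did not rank alike for all markers. Stone sample 1 had the highest Nphs1, Podxl, Synpo, Wt1, Ptpro and Actn4, while stone sample 3 had the highest Nes and Cd2ap. Stone sample 3 had the lowest value of 5 markers, namely Nphs1, Podxl, Synpo, Wt1 and Ptpro. Control sample 1 was the lowest control for every marker except Cd2ap, for which control sample 2 was.

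A ratio between a pair of genes within a sample is the same under any scaling that multiplies a sample by 1 factor, which quantile normalization does not do, and each marker was also set against Nphs1. Nphs1 changed least of the markers, so positive differences for all 7 others follow from this choice of denominator. How many of all tested genes are apart in their ratio to Nphs1 was not computed, so the markers' ratios have no such share beside them. The exact permutation test of 3 against 3 samples cannot go below p = 0.1, and with 7 such ratios no adjusted p was below 0.175. The ratio of Nes to Nphs1 was 1.92, 2.73 and 2.97 in stone samples 1 to 3, against 0.950, 0.756 and 0.984 in control samples 1 to 3. These groups were apart, with a log2 difference of 1.49 (exact two-sided permutation p = 0.1). Synpo over Nphs1 was 3.07, 4.01 and 3.99 in stone samples, against 2.12, 1.98 and 2.53 in control samples, a log2 difference of 0.74 (exact two-sided permutation p = 0.1). Wt1 and Ptpro relative to Nphs1 were also higher in every stone sample than in any control sample, by 0.35 and 0.29 on the log2 scale (exact two-sided permutation p = 0.1 each). For Podxl, Cd2ap and Actn4 the ratios to Nphs1 overlapped between groups, with log2 differences of 0.17, 0.56 and 0.30 (exact two-sided permutation p = 0.3, 0.2 and 0.3). With Podxl as the denominator in place of Nphs1, Synpo and Nes remained apart, at 0.57 and 1.32, and the ratios of Wt1 and Ptpro to Podxl overlapped.

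**Figure D3:**
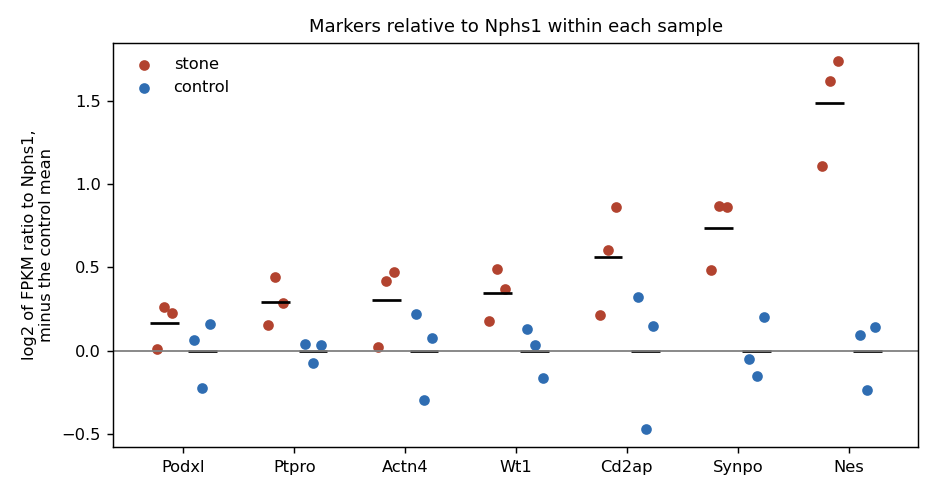
Log2 of the FPKM ratio of each of the other 7 markers to Nphs1 within a sample, minus the control mean of that marker, for 3 stone samples (red) and 3 control samples (blue), with group means as lines. Nes stands highest, at a difference of 1.49 and with no overlap between the groups, and Podxl lowest, at 0.17 and with overlap. Nphs1 changed least of the markers, so positive differences follow from its use as denominator.

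Other genes of the slit diaphragm and foot process were mixed. Of 23 listed, 18 were tested, and 13 rose, 0 fell and 5 did not pass, and the list had a median of 0.52 on the log2 scale, where 43.5% of all tested genes rose. Under median-of-ratios scaling 11 rose and 1 fell, where 22.5% of all tested genes rose, and after quantile normalization 8 rose and 1 fell, where 22.3% did. Kirrel, which encodes the nephrin-like protein NEPH1, rose to 4.10 ± 0.351 FPKM in stone kidneys, against 1.21 ± 0.243 FPKM in control kidneys (limma, adjusted p = 0.000242). Ezr, the gene of the linker ezrin that ties podocalyxin to actin and is abundant in tubule brush borders, measured 248.5 ± 4.90 FPKM in stone and 150 ± 6.36 FPKM in control kidneys (limma, adjusted p = 0.000113). The junction gene Tjp1, the large cadherin gene Fat1, the unconventional myosin gene Myo1e and the formin gene Inf2 rose by 0.94, 1.17, 0.91 and 1.08 on the log2 scale. These are not restricted to podocytes.

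Kirrel was called higher under each scaling, while some other calls of this list depended on it. Clic5, a chloride intracellular channel family member at foot processes, rose by 0.35 as deposited (limma, adjusted p = 0.0333), and stood at 0.11 under median-of-ratios scaling (limma, adjusted p = 0.502). Quantile normalization lost it as well, at 0.17, as did totals without Kap, at 0.32 (limma, adjusted p = 0.287 and 0.0679), and so did testing without the filter (limma, adjusted p = 0.0519). The Clic5 call was further lost without stone sample 1 or 2 or control sample 1 or 2, at 0.26, 0.38, 0.30 and 0.30 (limma, adjusted p = 0.0869, 0.0607, 0.106 and 0.102), and with the replicate block (limma, adjusted p = 0.0611). Magi2, a scaffold of the slit diaphragm, and Ddn, the gene of dendrin, had log2 fold changes of 0.21 and 0.29 and did not pass (limma, adjusted p = 0.187 and 0.055). They stood at 0.03 and 0.10 under median-of-ratios scaling and at -0.19 and -0.10 after quantile normalization (limma, adjusted p = 0.878, 0.485, 0.365 and 0.588). With equal FPKM sums both reached the threshold as higher, by 0.40 and 0.50 (limma, adjusted p = 0.0235 and 0.00619). Array weights called them too, at 0.24 and 0.26 (limma, adjusted p = 0.0419 and 0.0246), and Ddn was called without stone sample 2, at 0.37 (limma, adjusted p = 0.0475). Thsd7a, a podocyte membrane protein gene, rose by 0.51 (limma, adjusted p = 0.0116), with the call lost after quantile normalization, at 0.12 (limma, adjusted p = 0.483).

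Among podocyte transcription factors and secreted or signalling genes, 15 of 18 were tested, and 8 rose, 0 fell and 7 did not pass, and the list had a median of 0.38. That count is near the share of all tested genes that rose, 43.5%. Under median-of-ratios scaling 5 rose and 3 fell and after quantile normalization 4 rose and 3 fell, where 22.5% and 22.3% of all tested genes rose and 26.2% and 25.5% fell. Without stone sample 1 or control sample 1 only 5 rose. Tcf21, a factor of podocytes and of stromal cells, measured 14.4, 18.3 and 17.7 FPKM in stone samples 1 to 3, against 9.38, 5.55 and 10.2 FPKM in control samples 1 to 3, a rise of 0.96 on the log2 scale (limma, adjusted p = 0.00612). Sulf1, a sulfatase gene that edits heparan sulfate, had the smallest p of this list, at 2.68 ± 0.667 FPKM in stone and 0.537 ± 0.0924 FPKM in control kidneys (limma, adjusted p = 0.000698). Sema3g, a semaphorin gene, measured 16.5, 13.6 and 14.3 FPKM in stone samples 1 to 3, against 7.24, 9.46 and 8.93 FPKM in control samples 1 to 3, and was called higher under each scaling (log2 fold change 0.73, limma, adjusted p = 0.00168). Vegfa, by which podocytes support the glomerular endothelium and which tubules also make, measured 77.2 ± 6.35 FPKM in stone and 83.8 ± 4.46 FPKM in control kidneys. Its log2 fold change was -0.12 as deposited (limma, adjusted p = 0.223) and -0.37 under median-of-ratios scaling, where it was called lower (limma, adjusted p = 0.0121). The factor gene Dach1 and the rhophilin gene Rhpn1 were also uncalled, with -0.11 and -0.22 as deposited (limma, adjusted p = 0.355 and 0.182), and fell by 0.32 and 0.45 under median-of-ratios scaling (limma, adjusted p = 0.0363 and 0.0377). Array weights also called Vegfa and Rhpn1 lower, at -0.19 and -0.36, and Rhpn1 was called lower without stone sample 1, at -0.35 (limma, adjusted p = 0.0176, 0.0111 and 0.0284). Quantile normalization called Dach1 and Rhpn1 lower, at -0.48 and -0.53 (limma, adjusted p = 0.0132 and 0.0317). With equal FPKM sums Vegfa, Dach1 and Rhpn1 were on the other side of 0, at 0.16, 0.11 and 0.03, and were not called (limma, adjusted p = 0.127, 0.377 and 0.858).

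The glomerular basement membrane lies between podocyte and endothelium, and the genes listed for it split. They were measured in whole kidney RNA, so their values cannot be assigned to podocytes or to the glomerulus. Of 17 genes of this membrane and of podocyte adhesion, all were tested, and 15 rose and 2 fell, the median being 0.81, where 43.5% of all tested genes rose and 13.9% fell. Under median-of-ratios scaling 14 rose and 2 fell, where 22.5% and 26.2% did. Both genes that fell encode collagen chains that, together with the chain from Col4a5, form the mature glomerular network. Col4a3 measured 24.8, 27.4 and 32.3 FPKM in stone samples 1 to 3, against 50.7, 42.1 and 44.0 FPKM in control samples 1 to 3 (log2 fold change -0.68, limma, adjusted p = 0.00211). Col4a4 measured 26.2 ± 1.53 FPKM in stone and 32.8 ± 1.29 FPKM in control kidneys (SD, n = 3 each) and fell by 0.31 (limma, adjusted p = 0.00588), a call lost with equal FPKM sums, at -0.04 (limma, adjusted p = 0.588). Col4a5 rose by 0.52 as deposited (limma, adjusted p = 0.0153), with the call lost under median-of-ratios scaling, at 0.29, after quantile normalization, at 0.23, and when control sample 2 was left out, at 0.47 (limma, adjusted p = 0.0857, 0.154 and 0.0536). The laminin genes Lama5, Lamb2 and Lamc1, whose chains make up the laminin of the mature glomerular membrane, rose by 0.91, 0.93 and 0.81. Vcl, the vinculin gene that links integrins to actin, had the smallest p, at 31.9 ± 2.60 FPKM in stone and 12.4 ± 2.00 FPKM in control kidneys (limma, adjusted p = 0.000173). Itga3, which encodes the integrin that holds podocytes to laminin, rose by 1.53 (limma, adjusted p = 0.00203).

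Relatives and filament partners of the markers were set beside them. Of 14 listed, 8 were tested, and 7 rose and 0 fell, and 6 were called higher under median-of-ratios scaling, where 43.5% and 22.5% of all tested genes were called higher. Among those too low to test, Synpo2l and Actn3 were lower in every stone sample than in any control sample. Their means were 0.447 and 0.13 FPKM in stone and 0.80 and 0.267 FPKM in control kidneys. Synpo2 and Synm were higher in every stone sample, at means of 0.783 and 0.463 against 0.347 and 0.13 FPKM. For Actn2 and Podxl2 the groups overlapped. Actn1, the paralog of Actn4 found in smooth muscle and in non-muscle cells, also rose (log2 fold change 1.96, limma, adjusted p = 3.36e-05). It measured 29.6, 35.3 and 40.5 FPKM in stone samples 1 to 3, against 8.20, 7.77 and 8.64 FPKM in control samples 1 to 3. Vim and Des, filament proteins that can assemble with nestin, rose by 1.64 and 0.76 on the log2 scale. Cd34, a sialomucin of the podocalyxin family found on endothelium, rose by 1.14, and Sh3kbp1, the paralog of Cd2ap, by 0.54 (limma, adjusted p = 0.00523 and 0.0221). The Sh3kbp1 call was lost under median-of-ratios scaling, at 0.37, and quantile normalization, at 0.15 (limma, adjusted p = 0.0658 and 0.331). It was also lost without stone sample 2 or 3 or control sample 1 or 2, at log2 fold changes of 0.48, 0.48, 0.50 and 0.47 (limma, adjusted p = 0.074, 0.0661, 0.0717 and 0.0718).

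Transcripts of several other cell types moved in the same direction, and their part in the markers' rise was not tested. The counts below stand beside 43.5% of all tested genes higher as deposited, 22.5% by median of ratios and 68.5% after scaling to equal FPKM sums. Of 14 endothelial markers tested 10 rose and 0 fell, with 13 higher after scaling to equal FPKM sums and 9 by median of ratios, and their summed FPKM was 292 to 433 in stone and 150.0 to 242 in control samples. Plat, the tissue plasminogen activator gene of glomerular endothelium, had the smallest p of the list, at a log2 fold change of 2.16. The glomerular endothelial gene Ehd3 measured 7.38, 8.38 and 10.1 FPKM in stone samples 1 to 3, against 5.43, 5.01 and 9.02 FPKM in control samples 1 to 3, so that the groups overlapped (limma, adjusted p = 0.137). For mesangial cells 6 of 9 tested markers rose and 0 fell, with 7 higher at equal FPKM sums and 5 by median of ratios, with sums of 102 to 148 FPKM in stone and 38.6 to 56.6 FPKM in control samples. The transgelin gene Tagln had the smallest p, at a log2 fold change of 1.70, and is also on the list of myofibroblast and smooth muscle markers. Of the partners named above, Des is on the mesangial list too and Cd34 on the endothelial list, so the lists are not independent. Itga8, an integrin gene of mesangial cells, did not pass, at a log2 fold change of 0.05 (limma, adjusted p = 0.857). Myofibroblast and smooth muscle markers rose in 7 of 11 tested, 11 at equal FPKM sums and 7 by median of ratios, with sums of 166 to 282 FPKM in stone and 65.4 to 88.8 FPKM in control samples, with the smallest p for Col1a1.

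Markers of parietal epithelium, the cells that line the glomerular capsule, rose in 6 of 8 tested, 7 at equal FPKM sums and 6 by median of ratios, with sums of 529 to 627 FPKM in stone and 265.5 to 277 FPKM in control samples. Akap12, a scaffold protein gene, had the smallest p among them, at 33.8 ± 3.40 FPKM in stone and 1.75 ± 0.925 FPKM in control kidneys. All 9 markers of injured tubules rose, with the smallest p for the osteopontin gene Spp1 at a log2 fold change of 3.81. Their sums were 8728 to 9115 FPKM in stone and 612 to 724 FPKM in control samples, most of it Spp1. Macrophage markers rose in 7 of 8, as they did under both of these scalings, with the smallest p for the complement gene C1qc at a log2 fold change of 2.14 and with sums of 225 to 556 FPKM in stone and 76.1 to 83.1 FPKM in control samples. Proximal tubule markers went the other way, with 7 of 10 lower and 0 higher, where 13.9% of all tested genes were called lower. By median of ratios 8 were lower and 0 higher, where 26.2% of all tested genes were lower. At equal FPKM sums 6 were lower and 1, Hnf4a, was higher, where 6.47% were lower. Slc5a2, Hnf4a and Cubn did not pass as deposited, at log2 fold changes of 0.16, 0.06 and -0.13. The list's sums were 11140 to 16870 FPKM in stone and 150200 to 181100 FPKM in control samples, most of it Kap. In these 7 lists, 0 genes were at 0 in every sample. Several listed genes, such as Cd44, Pax8 and Ezr, are also made by tubules. Ezr, which is on the slit diaphragm list too, made up 245 to 254 FPKM of the parietal sums in stone samples. In control samples it made up 143 to 156 FPKM.

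**Figure D4:**
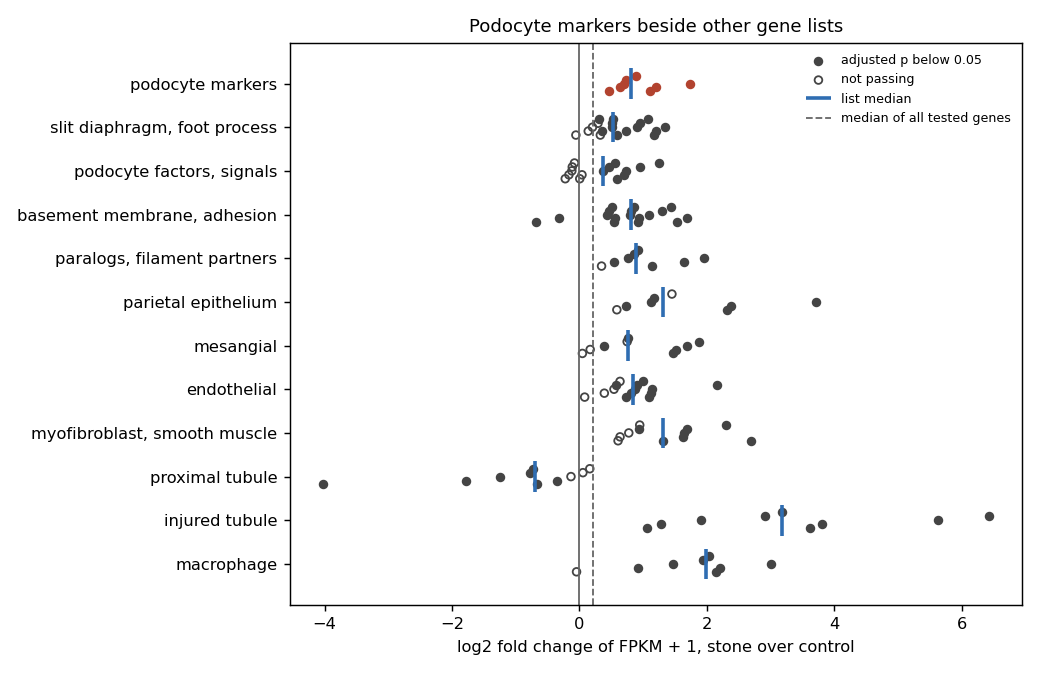
Log2 fold change of FPKM + 1, stone over control, of each tested gene in 12 lists, filled where the adjusted p was below 0.05, with the list median in blue and the median of all tested genes dashed. The podocyte markers (red) lie from 0.46 to 1.74, with a median of 0.81. List medians run from -0.70 for proximal tubule markers to 3.18 for injured tubule markers. They are 0.76 for mesangial, 0.84 for endothelial, 1.31 for myofibroblast and smooth muscle and 1.32 for parietal epithelium markers. Single genes of these lists overlap with the range of the podocyte markers.

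The genes whose course over the 6 samples was nearest to a marker were found by the root mean square difference of log2(FPKM + 1), centred on each gene's mean, among tested genes outside the set. Nearest to Nphs1 were Renbp, Cdkn1c, Uap1l1, Rrp15 and Exoc3l4, at differences of 0.060 to 0.082. Of these Cdkn1c, a cell cycle inhibitor gene that mature podocytes express, was also on the list of podocyte factors, with 11.0 ± 1.83 FPKM in stone and 7.72 ± 1.26 FPKM in control kidneys. The nearest marker of the set was Ptpro, at 0.119. Spata24, Gstm5, Plin2, Acot1 and Nr1i2 were nearest to Wt1, at 0.050 to 0.062, with Ptpro again the nearest marker, at 0.075. Nes was matched most closely by Maff, Lhfpl2, Mt2, Golm1 and Mki67, at 0.030 to 0.078, while its nearest marker, Synpo, was at 0.287. Mki67, the gene of a protein of dividing cells, averaged 3.92 FPKM in stone and 0.447 FPKM in control kidneys.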

How the data were processed

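RNA-seq of whole mouse kidney was deposited as 1 table of FPKM for 6 samples, 3 stone and 3 control. Per the labels' protocols, TRIzol RNA was made into libraries with dUTP in the second strand and sequenced as DNA nanoballs. Per the submitters' processing notes, reads were aligned with HISAT2 2.0.4 to GRCm38.p6. How genes were quantified, with which annotation and whether by strand, no source used here gives. FPKM values made by the authors sum to 609705 to 613885 in stone and 711768 to 758514 in control samples, and 0 columns belong to other samples. Low values taken as 1 fragment, in 53 genes, differed between samples by -0.056 to 0.105 log2 units, but were chosen to lie within 1.25 times of each other, so like depth is not shown. Absolute depth is unknown and no counting intervals are given.

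The 12319 genes whose mean reached 1 FPKM were tested on log2(FPKM + 1) with limma 3.58.1 in R 4.3.3 (lmFit, eBayes with trend), two-sided, with Benjamini-Hochberg adjustment over all of them and a threshold of 0.05. Within-sample ratios used exact permutation tests (scipy 1.17.1). The fit was also run on simulated independent values with few genes changed and no scaling difference between samples, which cannot address the scaling of these data. Alternatives were other pseudocounts, no filter, 4 scalings or normalizations, array weights, a replicate block and leaving out each sample. The markers and gene lists were chosen with earlier results of these data known, and some listed genes are not reported here. Named are all markers, the called gene with the smallest p in each direction of a list, tested podocyte genes, paralogs and partners, and the 5 nearest genes of 3 markers. Others, such as Ehd3 and Itga8, were chosen after their values were seen. Coordinates are those of GENCODE M21 (GRCm38), and promoters come from RefSeq.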

Additional observations from a re-analysis of the deposited data

How the results depend on the processing

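Podxl, Synpo, Nes, Cd2ap and Actn4 kept their direction and their call under all 15 alternatives, with log2 fold changes of 0.48 to 1.00, 0.93 to 1.45, 1.41 to 2.03, 0.86 to 1.38 and 0.63 to 1.16 under those that keep all samples. Wt1 and Ptpro kept it under 14, and lost it after quantile normalization, at 0.31 and 0.23. Nphs1 was positive under all 15 and called under 7. It stood at 0.26 under median-of-ratios scaling, at 0.0772 after quantile normalization and at 0.46 both without the filter and with the replicate block (limma, adjusted p = 0.239, 0.754, 0.0644 and 0.0767). Leaving out each sample gave 0.33 to 0.56 for Nphs1 (limma, adjusted p = 0.0323 to 0.114). The cause was not tested.

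The number of tested genes called higher and lower was 5356 and 1711 as deposited, 2776 and 3222 under median-of-ratios scaling, 2744 and 3138 after quantile normalization and 8440 and 797 with equal FPKM sums. Markers called higher numbered 5 after quantile normalization, against 8. In the slit diaphragm list 8 were higher after quantile normalization and 1 lower after this and under median-of-ratios scaling. In the list of factors, of 8 higher as deposited, 5 were higher under median-of-ratios scaling and 4 after quantile normalization, with 3 lower after this and under median-of-ratios scaling, and 2 using array weights. Leaving out each sample gave 5 to 8 higher and 0 to 1 lower there. In the basement membrane list 1 was lower with equal FPKM sums. Pard3b, called higher as deposited at 0.38, kept that call under 5 of the 15 alternatives. It was at -0.0186 after quantile normalization, and the call was also lost without the filter, under median-of-ratios scaling, with Kap left out of equal sums, with the replicate block and in 5 of 6 fits that leave out a sample (limma, adjusted p = 0.0525 to 0.91 over all 10).

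Log2 differences of the ratios against Podxl were 0.18 for Wt1 and 0.13 for Ptpro. With 1 FPKM added to both values, Ptpro against Nphs1 was at 0.18. Same-numbered samples did not deviate together (correlations of 0.0075, -0.220 and -0.0397), so the replicate numbers were not used as pairs. The replicate block changed no other call among the markers and gave 4861 genes higher and 1517 lower.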

Other observations

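Several genes of the podocyte lists were too low to be tested and are given as values. Plce1, a phospholipase gene of the foot process, measured 1.11, 1.23 and 1.41 FPKM in stone samples 1 to 3, against 0.66, 0.64 and 0.78 FPKM in control samples 1 to 3. Crb2, a polarity gene of podocytes, measured 1.17, 0.87 and 0.72 FPKM in stone samples, against 0.21, 0.55 and 0.35 FPKM in control samples. Ptgs2, the gene of an inducible prostaglandin synthase, measured 1.24, 1.48 and 1.96 FPKM in stone samples, against 0.15, 0.23 and 0.54 FPKM in control samples. Lmx1b, a podocyte transcription factor gene, measured 0.57, 0.55 and 0.62 FPKM in stone samples, against 0.30, 0.43 and 0.48 FPKM in control samples. The channel gene Trpc6 averaged 0.0733 FPKM in both groups. Kirrel3 measured 0.04, 0.31 and 0.41 FPKM in stone samples, against 0.14, 0.05 and 0.04 FPKM in control samples. Foxd1 measured 0.38, 0.44 and 0.48 FPKM in stone samples, against 0.13, 0.51 and 0.44 FPKM in control samples. For Kirrel3 and Foxd1 the groups overlapped. Kirrel2 measured 0.10, 0.07 and 0.05 FPKM in stone samples, against 0.02, 0.00 and 0.03 FPKM in control samples.

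Egr1, an immediate early gene whose product binds a motif like that of WT1, varied widely among controls. It measured 28.0, 39.8 and 41.3 FPKM in stone samples 1 to 3, against 3.02, 42.9 and 136 FPKM in control samples 1 to 3, and did not pass (limma, adjusted p = 0.809). With array weights it was called higher, at a log2 fold change of 2.51 (limma, adjusted p = 0.0458).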
